A study of Ramazzottius varieornatus with 18 samples.

Results

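In juveniles of the tardigrade Ramazzottius varieornatus a set of 150 of the 14532 transcripts quantified was chosen for a level that was highest at Juvenile 5d and lowest at Juvenile 4d. The level was TPM, the share of a library's reads that a transcript takes after division by its effective length. That length rests on a fragment length set by the authors. For short coding sequences it weighs most, so their levels compare least well with those of other transcripts. The choice took genes with a single predicted transcript, a mean of 5 to under 1000 TPM over the libraries and no place in the study's own lists of named genes, which left 7390 eligible transcripts. Of these, 907 had their highest daily mean at Juvenile 5d, 985 had their lowest at Juvenile 4d, and 243 had both. In 229 of the 243 all 3 Juvenile 5d libraries also lay above all 3 Juvenile 4d libraries. These 229 were ranked by the log2 ratio of the Juvenile 5d to the Juvenile 4d mean, each with 1 TPM added, and the first 150 were kept. Values of Juvenile 5d against 4d therefore only describe how the members were chosen.

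RNA was sequenced from whole juveniles of the strain YOKOZUNA-1 on 6 days, Juvenile 2d to 7d, with 3 libraries a day and 18 libraries in all. The animals were fed on Chlorella vulgaris, carry no label of a treatment, and differed by label only in day. How many animals entered a library, and whether replicates came from separate cultures, is not given in the sources used here, so a p-value measures the spread between these libraries, which may be technical. The RNA came from whole bodies, in which a change in the number of cells of a type and a change in the RNA per cell cannot be told apart.

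Tardigrades grow by molting, in which a new cuticle is laid down beneath the old one before the old one is shed. In arthropods the molting hormone 20-hydroxyecdysone binds a receptor made of EcR and USP, and the receptor switches on a short cascade of nuclear receptors and other transcription factors, among them E74, HR3 and HR4. The competence factor bFtz-F1 follows as the hormone declines, and CYP18A1 breaks the hormone down. These genes, with E75, another nuclear receptor of the cascade, and sad, an enzyme of hormone synthesis, make up the study's molting list of 12 transcripts. The transcript g11712.t1, E75 in that list, is called E78 in the study's figure legend. The identifiers of the 150 members themselves matched no entry of the reference gene table used here (0 of 150), so they are given by transcript identifier alone, with no function, genome position or sequence.

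The estimated counts per library summed to between 1250604 and 5095736, with a median of 3700490, and the members together held between 19418 and 210568 of them. The shallowest library was Juvenile 7d replicate 3 and the deepest was Juvenile 6d replicate 1. The members' share in these 2 libraries also differed from that in the other libraries of their days. The members held 2.13% of TPM in Juvenile 7d replicate 3, against 1.00% and 1.04% in the other 2 libraries of that day, and 1.63% in Juvenile 6d replicate 1, against 1.99% and 1.98% in the others. The median deviation of the 12 molting transcripts from their own means on the log2(TPM + 1) scale was −1.18 in Juvenile 6d replicate 1, against 0.50 and 0.94 in the other Juvenile 6d libraries. In Juvenile 7d replicate 3 it was 0.73, against 0.14 and 0.54 in the other 7d libraries. Other days were uneven too, with a members' share of 0.771% in Juvenile 4d replicate 3 against 0.376% and 0.467% in the others. Days 6 and 7 were compared with each other and with the early days. The counts of members called there are given with and without Juvenile 6d replicate 1 and 7d replicate 3. This pair was chosen after the values were seen. The other values of days 6 and 7 include both libraries. The part of depth in these differences was not tested.

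Together the members took a small share of each library, and that share was largest at Juvenile 5d. Their summed share of TPM was 1.61% ± 0.054 at Juvenile 2d, 1.08% ± 0.11 at 3d, 0.538% ± 0.21 at 4d, 3.74% ± 0.62 at 5d, 1.87% ± 0.21 at 6d and 1.39% ± 0.64 at 7d (SD, n = 3 each). The 3 Juvenile 5d libraries held 4.31%, 3.84% and 3.09%, against 0.376%, 0.467% and 0.771% in the 3 Juvenile 4d libraries. The libraries of the other 4 days lay between these, from 0.972% to 2.13%. The level of the median member followed the same order of days, with 92.9 ± 19.6 TPM at Juvenile 5d and 13.4 ± 5.1 TPM at 4d (SD, n = 3 each).

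**Figure D1:**
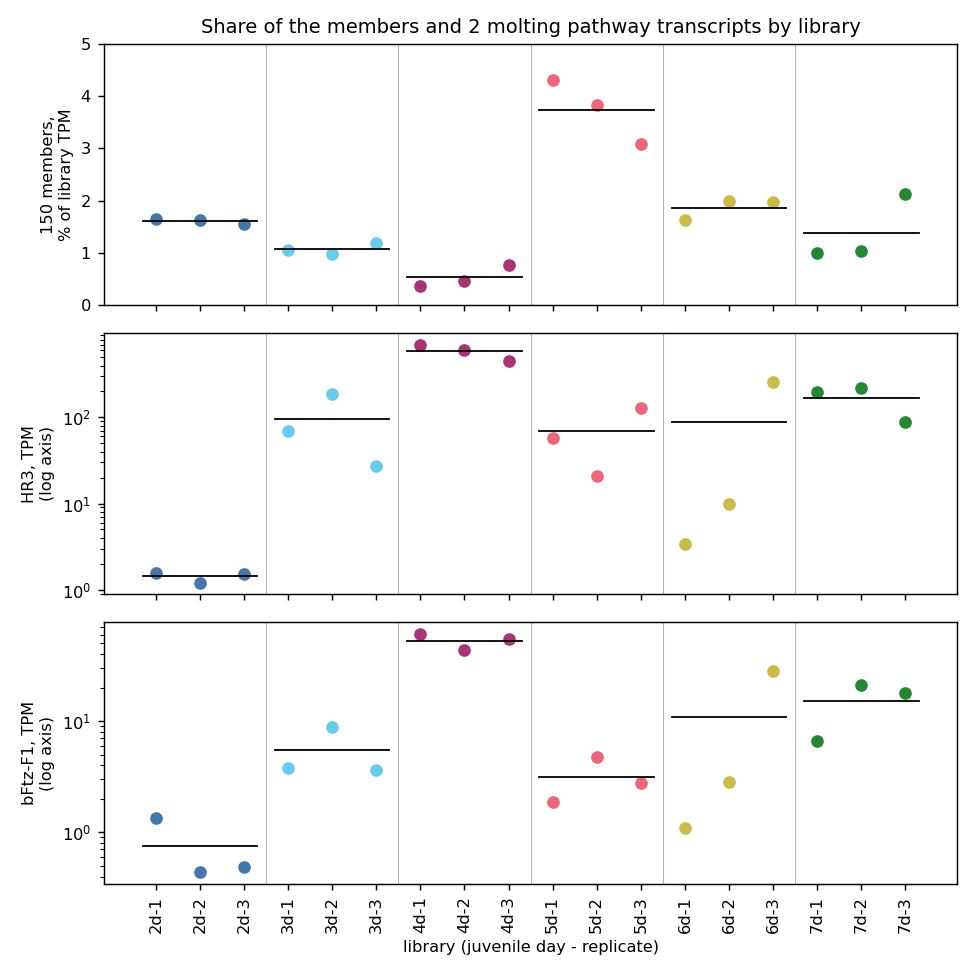
Share of library TPM held by the 150 members (top, percent, axis from 0), and the levels in TPM of HR3 (middle, log axis) and bFtz-F1 (bottom, log axis), in each of the 18 libraries in day order. Points are libraries and lines are day means. The members held 3.09% to 4.31% at Juvenile 5d and 0.376% to 0.771% at 4d, whereas HR3 and bFtz-F1 were highest at 4d.

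Of the 12 molting transcripts, 2 were lower at Juvenile 5d than at 4d and 0 were higher, where 11.9% of all transcripts tested were lower and 13% higher. bFtz-F1 (g4792.t1) had 1.86, 4.77 and 2.79 TPM in the Juvenile 5d libraries, against 60.3, 43.6 and 55.1 TPM in the 4d libraries. HR3 (g6536.t1) had 58.0, 20.8 and 127 TPM at Juvenile 5d, against 692, 612 and 447 TPM at 4d. Neither transcript overlapped between the 2 days. In edgeR's quasi-likelihood test over all transcripts bFtz-F1 fell by 3.86 on the log2 scale (SE 0.84, adjusted p = 0.00395), while the difference of HR3 was −2.89 and did not pass (SE 1.11, edgeR adjusted p = 0.0716). The other transcript that passed was USP (g11953.t1), which fell by 1.01 (SE 0.29, edgeR adjusted p = 0.0204). HR4 (g2273.t1) did not pass, with a log2 difference of −1.05 (SE 0.38, edgeR adjusted p = 0.0553).

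Within a day the same library was the extreme one for most members. The same counts were not made over all eligible transcripts, so they are not read as particular to the members. Juvenile 4d replicate 3 was the highest library of its day for 139 of the 150 members, and Juvenile 5d replicate 3 was the lowest of its day for 120. Juvenile 7d replicate 3 was the highest of its day for 109, and Juvenile 6d replicate 1 the lowest for 92. HR3 had 447 TPM in Juvenile 4d replicate 3, its lowest value of that day, and 127 TPM in Juvenile 5d replicate 3, its highest of that day. In Juvenile 6d replicate 1, with 3.41 TPM, and in 7d replicate 3, with 89.3 TPM, it was the lowest of the day. bFtz-F1 was the middle library of its day in Juvenile 4d, 5d and 7d replicate 3 and the lowest in 6d replicate 1, at 1.09 TPM. Whether the members' spread within a day is tied to these differences was not tested.

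The ratio of the Juvenile 5d to the 4d mean ranged among the members between 2.64 and 137, with a median of 5.46. It was 8 or more in 45 members, 4 to under 8 in 65 and under 4 in 40. Mean levels over the libraries ranged between 5.05 and 983 TPM, with 40 members under 20 TPM, 62 at 20 to under 100 TPM and 48 at 100 TPM or more. At Juvenile 4d some members were close to the limit of detection, since 27 had fewer than 10 counts and 6 had 0 counts in at least 1 of that day's libraries. At the end of the ranking g6335.t1 (rank 149) had 12.8 TPM at Juvenile 5d against 4.28 TPM at 4d, and g13363.t1 (rank 150) had 37.7 TPM against 13.8 TPM. The first transcripts left out were g1409.t1, with 29.3 TPM at 5d against 10.9 TPM at 4d, and g7111.t1, with 176 TPM against 69.1 TPM, so the ratios just inside and just outside the limit were alike.

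**Figure D2:**
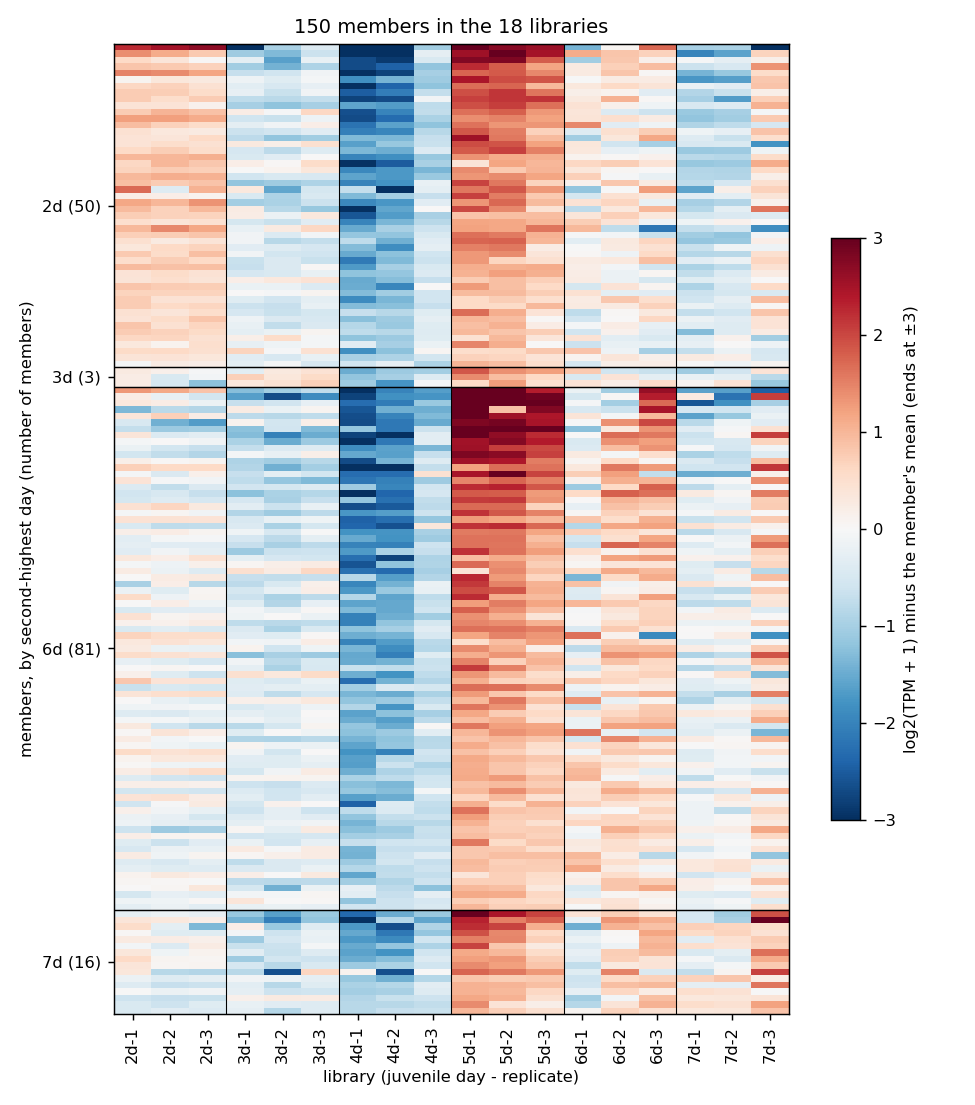
Levels of the 150 members (rows) in the 18 libraries (columns, juvenile day and replicate). Colour is log2(TPM + 1) minus the member's mean over the libraries, drawn up to 3 in either direction. Rows are grouped by the day with the second-highest mean, 2d (50 members), 3d (3), 6d (81) and 7d (16). Juvenile 4d replicate 3 is the least blue of the 4d libraries for 139 members.

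The members of the first 12 ranks differed most between the 2 days that chose them. For 9 of the 12 every Juvenile 5d library lay above every other library, which held for 3.14% of eligible transcripts. The rule chose and ranked the members on these values, so nothing is read from this count. g6521.t1 (rank 1) had 1119, 195 and 104 TPM in the Juvenile 5d libraries, against 0.625, 4.17 and 5.53 TPM in the 4d libraries. Its other days had 36.3 to 49.5 TPM at Juvenile 2d, 7.43 to 11.1 TPM at 3d, 8.98 to 124 TPM at 6d and 2.74 to 5.74 TPM at 7d. It overlapped with Juvenile 6d through replicate 3 of that day, and Juvenile 5d replicate 1 stood well above the other 5d libraries. g1816.t1 (rank 2), a short coding sequence of 309 bases, rested on few reads, with 80, 15 and 14 counts at Juvenile 5d against 0, 0 and 1 count at 4d. The ratio of its summed counts, each divided by the library totals, was 114, with an exact 95% interval of 19.99 to 4533 that covers counting error only.

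g8400.t1 (rank 3) had 507, 218 and 144 TPM at Juvenile 5d, against 1.81, 4.48 and 4.69 TPM at 4d. g12803.t1 (rank 4) had 1217, 646 and 458 TPM at Juvenile 5d, against 9.52, 10.9 and 22.8 TPM at 4d. In both, Juvenile 5d replicate 1 was the highest library of the 18, and Juvenile 6d replicate 3 was the highest of day 6, at 96.9 TPM for g8400.t1 and 165 TPM for g12803.t1. g13242.t1 (rank 5) was uneven within the day, with 1615, 102 and 379 TPM at Juvenile 5d against 8.32, 19.6 and 19.1 TPM at 4d. Its Juvenile 6d replicate 3, at 309 TPM, lay above Juvenile 5d replicate 2, so its peak day is not clear in every library.

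g11646.t1 (rank 7) and g9800.t1 (rank 8) were steadier at Juvenile 5d. g11646.t1 had 581, 610 and 459 TPM at 5d, against 11.998, 17.8 and 27.9 TPM at 4d. g9800.t1 had 80.1, 68.1 and 73.6 TPM at 5d, against 2.79, 0.909 and 4.34 TPM at 4d. g9800.t1 was also low on days 2 and 3, at 2.34 to 4.61 TPM, so its Juvenile 4d level was close to that of the days before it. g10982.t1 (rank 6) averaged 217 ± 121 TPM at Juvenile 5d and 6.18 ± 3.24 TPM at 4d, and g8880.t1 (rank 12) 135 ± 46.2 TPM at 5d and 6.99 ± 7.89 TPM at 4d (SD, n = 3 each). g1968.t1 (rank 10) averaged 142 ± 38.9 TPM at Juvenile 5d and 6.33 ± 9.09 TPM at 4d, and g12882.t1 (rank 11) 187 ± 68.2 TPM at 5d and 9.78 ± 4.26 TPM at 4d (SD, n = 3 each).

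**Figure D3:**
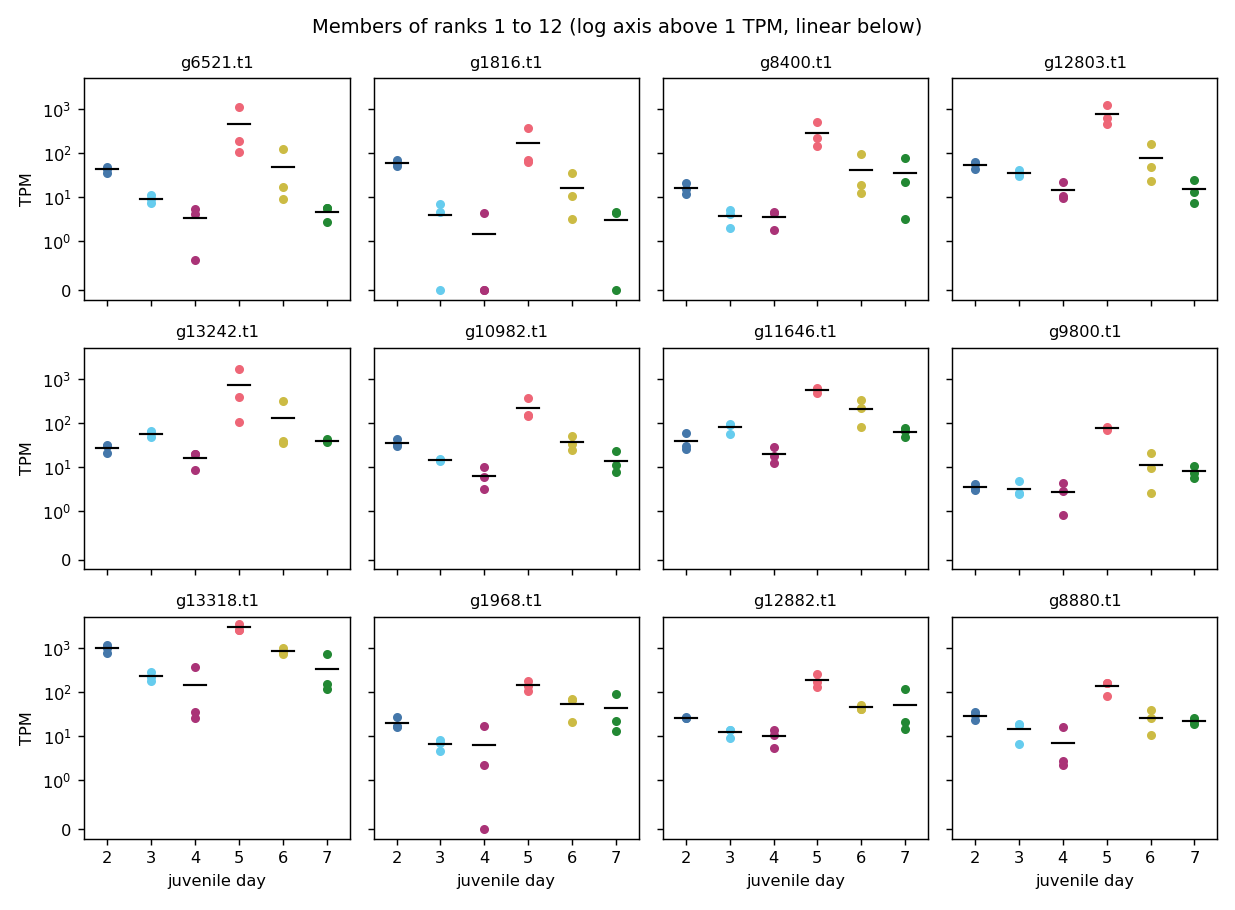
TPM of the members of ranks 1 to 12 by juvenile day, on a log axis above 1 TPM and a linear axis below it. Points are the 3 libraries of a day and bars are their mean. For 9 of the 12 the Juvenile 5d points lie above all others, the exceptions being g6521.t1, g1816.t1 and g13242.t1. This held for 3.14% of eligible transcripts, and the rule used these values.

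The members of highest mean level were g12903.t1 (983 TPM over the 18 libraries), g13318.t1 (905 TPM), g5290.t1 (847 TPM), g7267.t1 (568 TPM) and g1552.t1 (563 TPM). g13318.t1 (rank 9) had 2618, 3571 and 2555 TPM in the Juvenile 5d libraries, against 26.0, 34.4 and 372 TPM in the 4d libraries. g5290.t1 (rank 18) had 3215, 2272.7 and 2154 TPM at Juvenile 5d, against 161, 222 and 277 TPM at 4d. In g13318.t1 the third library of day 4 was higher than the other 2 by an order of magnitude, and it lay above the range of day 3, at 179 to 287 TPM. g12903.t1 (rank 49) was mainly low at Juvenile 4d, with 97.2, 136 and 394 TPM there, and its Juvenile 5d libraries, at 1003, 1761 and 1544 TPM, overlapped with those of day 2, at 1183 to 1535 TPM, while 2 of its Juvenile 7d libraries, at 352 and 359 TPM, lay below the highest of day 4. g1552.t1 (rank 20) had 1584, 909 and 1087 TPM at Juvenile 5d, and its highest library was Juvenile 7d replicate 3, with 2582 TPM against 225 and 162 TPM in the other libraries of that day.

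How sharp the Juvenile 5d peak was differed widely. The Juvenile 5d mean was at least 4 times that of the next-highest day in 9 members, at least 2 times in 46 and at least 1.5 times in 78. All 3 Juvenile 5d libraries lay above every other library in 61 members, and all 3 Juvenile 4d libraries lay below every other library in 44. Each held for 3.14% of eligible transcripts, and since the rule used these values nothing is read from the counts. As a median over the members, the day means relative to Juvenile 5d were 45.7% at 2d, 32.6% at 3d, 18.3% at 4d, 52.7% at 6d and 42.8% at 7d.

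The day with the second-highest mean sorts the members into groups of different shape. In 81 members it was Juvenile 6d, and in these the median level relative to 5d was 63.6% at 6d and 44.6% at 7d. In 50 members it was Juvenile 2d, where the median was 64.9% of the 5d level, with 32.8% at 3d and 15.6% at 4d, so these had a high level on both sides of a trough. In 16 members it was Juvenile 7d and in 3 members Juvenile 3d (g5096.t1, g5461.t1 and g3025.t1, named after their values were seen). The second-lowest day was Juvenile 3d in 88 members, 7d in 35, 2d in 26 and 6d in 1. The groups follow from day means alone and were not tested.

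The comparisons that the choice did not use show how the members moved away from the peak and the trough. The rule holds days 2, 3, 6 and 7 between the day-4 and day-5 means but leaves their order free. Counts were tested with the quasi-likelihood test of edgeR, with Benjamini-Hochberg adjusted p-values over the 10436 transcripts tested, and a call is an adjusted p no higher than 0.05. Of the members 149 were tested. g12668.t1 (rank 104), with at most 7 counts in any library, was removed by the filter on low counts.

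Many members were lower at Juvenile 3d than at 2d. Of the 149, 51 (34.2%) were lower at Juvenile 3d than at 2d and 0 were higher, where 11.8% of all transcripts tested were lower and 14% were higher. The median log2 fold change was −0.87 among the members and 0.01 over all transcripts, and it was negative in 135 members. Positive values made up 9.40% of the members and 50.5% of all transcripts. At an unadjusted p under 0.05, 81 members (54.4%) were lower and 2 were higher, where 18.8% of all transcripts were lower. The direction of the median held on the TPM scale, where limma gave −0.56 for the members and 0.24 over all transcripts and called 28 members (18.7%) and 5.32% of all transcripts lower. The number of calls depended on the libraries, with 25 lower (16.8%, where all transcripts had 5.80%) when Juvenile 3d replicate 2 was left out and 31 (20.8%, where all had 5.60%) when 3d replicate 1 was. Leaving out Juvenile 6d replicate 1 and 7d replicate 3, which enter through the shared estimate of spread, gave 82 lower (55.0% of the members) and 2 higher, while 21.6% of all transcripts were lower and 21.5% higher in that fit.

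Among the called members the largest falls between these days were those of g1816.t1, g9841.t1 and g12325.t1. g1816.t1 had 0, 1 and 2 counts in the Juvenile 3d libraries, against 9, 15 and 18 counts in the 2d libraries. The same ratio was 0.0598 at 3d against 2d (exact 95% interval 0.0119 to 0.187, counting error only), and the fitted log2 fold change of −4.01 (SE 0.93, edgeR adjusted p = 0.00680) depends on the prior count at so low a level. g9841.t1 (rank 65) had 3.63, 3.87 and 5.01 TPM at Juvenile 3d, against 19.98, 17.7 and 22.9 TPM at 2d, a log2 fold change of −2.55 (SE 0.49, edgeR adjusted p = 0.00241). The days did not overlap, and its Juvenile 3d level was close to that at 4d, where it had 1.47, 1.78 and 6.48 TPM. g12325.t1 (rank 56) had 17.7, 19.6 and 21.6 TPM at Juvenile 3d, against 79.0, 71.2 and 75.9 TPM at 2d, a log2 fold change of −2.22 (SE 0.47, edgeR adjusted p = 0.00418). For g12325.t1 the third library of day 4, at 35.4 TPM, lay above all 3 of day 3, so its lowest day rests on the other 2 libraries, at 9.59 and 11.3 TPM.

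Most of the first 12 members also had negative values here, but few passed. g10982.t1 was lower at Juvenile 3d, with 14.3, 13.8 and 14.7 TPM against 32.8, 42.1 and 29.7 TPM at 2d (log2 fold change −1.57, SE 0.42, edgeR adjusted p = 0.0144). g6521.t1 and g13318.t1 had larger log2 fold changes, −2.51 and −2.38, that missed the threshold (SE 0.90 and 0.87, edgeR adjusted p = 0.0531 and 0.0565). g11646.t1 and g13242.t1 ran the other way, with 0.83 and 0.77 (SE 0.40 and 0.80, edgeR adjusted p = 0.135 and 0.507). In all, 2 of the 12 were called, both lower, beside 11.8% lower and 14% higher among all transcripts. Nothing is read from so small a count.

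Of the 12 molting transcripts 5 were higher at Juvenile 3d than at 2d and 0 were lower, beside the 14% and 11.8% of all transcripts. HR3 had 69.4, 188 and 27.4 TPM at Juvenile 3d, against 1.56, 1.21 and 1.51 TPM at 2d, and rose by 5.74 on the log2 scale (SE 1.32, edgeR adjusted p = 0.00653). HR4 rose by 3.32 (SE 0.50, edgeR adjusted p = 0.000741), and bFtz-F1, with 2.62, did not pass (SE 0.95, edgeR adjusted p = 0.0559). Among the others that passed were both EcR transcripts, the hormone receptor itself, with 0.92 for g12979.t1 (SE 0.23, edgeR adjusted p = 0.0106) and 2.23 for g8354.t1 (SE 0.61, edgeR adjusted p = 0.0156). CYP18A1 (g13718.t1) had a log2 difference of −0.46 (SE 0.80, edgeR adjusted p = 0.716).

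**Figure D4:**
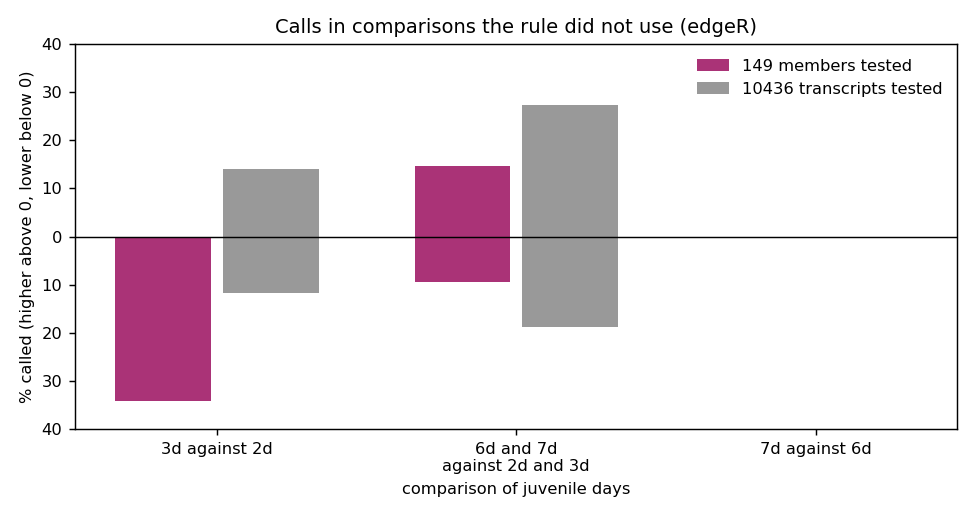
Percent of the 149 members tested (purple) and of all 10436 transcripts tested (grey) that edgeR called higher (above 0) or lower (below 0) in the comparisons that did not enter the choice of members. At Juvenile 3d against 2d 34.2% of the members were lower, against 11.8% of all transcripts. No transcript was called at 7d against 6d.

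Between the late days (Juvenile 6d and 7d) and the early days (2d and 3d) the members had no common direction. On the counts 22 members (14.8%) were higher on the late days and 14 (9.40%) were lower, where 27.2% of all transcripts were higher and 18.8% lower. The median log2 fold change was 0.02 among the members and 0.09 over all transcripts. Both shares of members lie below the shares of all transcripts, a difference that was not tested. The scale mattered for the balance of directions. By TPM the late mean was above the early mean in 107 of 150 members. On the counts 76 of 149 (51.0%) had a positive value, where all transcripts had 55.3%. By limma on TPM 36 members (24.0%) were called higher and 8 (5.33%) lower, where all transcripts had 33.05% and 12.8%. On that scale the median of all transcripts was itself shifted to 0.28. With Juvenile 6d replicate 1 and 7d replicate 3 left out, 21 members (14.1%) were higher and 34 (22.8%) lower, where 31.1% of all transcripts were higher and 24.7% lower. The count of higher members was 12 to 14 with any of Juvenile 6d replicate 2, 7d replicate 3, 2d replicates 2 and 3 and 3d replicate 2 left out. In these fits 8.05% to 9.40% of the members were higher, where 23.8% to 25.7% of all transcripts were. The count of lower members was 8 or 9 with Juvenile 6d replicate 2, 7d replicate 1 or 3d replicate 3 left out. That was 5.37% to 6.04% of the members, where 15.6% to 17.8% of all transcripts were lower. It was 26 with 7d replicate 3 left out (17.4%, all transcripts 18.1%) and 27 with 6d replicate 1 left out (18.1%, all transcripts 23.6%). Of the 12 molting transcripts 9 were higher on the late days and 0 lower, beside the 27.2% and 18.8% of all transcripts.

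Among the called members those that rose most on the late days were g8400.t1, g1968.t1 and g3887.t1. g3887.t1 (rank 29) had 167, 380 and 347 TPM at Juvenile 6d and 131, 113 and 316 TPM at 7d, against 72.9, 77.8 and 66.9 TPM at 2d and 45.8, 56.1 and 59.5 TPM at 3d. All its late libraries lay above all its early ones, and the log2 fold change was 1.58 (SE 0.35, edgeR adjusted p = 0.00274), called in all 25 alternative fits. g8400.t1 had a log2 fold change of 1.90 (SE 0.63, edgeR adjusted p = 0.0226), with 12.3 to 96.9 TPM at Juvenile 6d and 3.17 to 80.0 TPM at 7d, against 12.2 to 21.7 TPM at 2d and 2.01 to 5.10 TPM at 3d. Its late and early libraries overlapped, and the call was lost in 6 of 25 alternative fits, among them those that left out the third library of day 6 or of day 7, with adjusted p up to 0.0917. g1968.t1 had 1.60 (SE 0.55, edgeR adjusted p = 0.0264) and lost its call in 5 of 25, with adjusted p up to 0.0843. Among the first 12 members 5 were higher on the late days and 0 lower, beside 27.2% higher and 18.8% lower among all transcripts. Nothing is read from so small a count.

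Among the called members those that fell most on the late days were g4033.t1, g12777.t1 and g13440.t1. g12777.t1 (rank 31) had 297, 172 and 149 TPM at Juvenile 6d and 106, 115 and 219 TPM at 7d, against 393, 470 and 422 TPM at 2d and 267, 224 and 353 TPM at 3d. Its log2 fold change was −1.23 (SE 0.34, edgeR adjusted p = 0.00929), and all 25 alternative fits called it. g13440.t1 (rank 45), at 41.6 to 107 TPM at Juvenile 6d and 23.4 to 61.4 TPM at 7d against 113 to 121 TPM at 2d and 95.7 to 118 TPM at 3d, had −1.14 (SE 0.33, edgeR adjusted p = 0.0109) and was called in all 25 as well. In both members only Juvenile 6d replicate 1 of the late libraries reached into the early range. g4033.t1 (rank 75) had 31.6, 8.85 and 2.71 TPM at Juvenile 6d and 9.23, 10.02 and 3.61 TPM at 7d, against 31.7, 44.0 and 36.02 TPM at 2d and 13.3, 19.1 and 24.7 TPM at 3d. Its log2 fold change of −1.42 (SE 0.47, edgeR adjusted p = 0.0224) was called in 22 of 25 alternatives, with adjusted p up to 0.0559.

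Between Juvenile 6d and 7d edgeR called 0 members and 0% of all transcripts in either direction. At an unadjusted p under 0.05 it had 39 members (26.2%) lower and 0 higher at Juvenile 7d, where 6.69% of all transcripts were lower, and the smallest adjusted p of a member was 0.332. The log2 fold change was negative in 138 of 149 members, with a median of −0.53 against −0.01 over all transcripts. Positive values made up 7.38% of the members and 48.6% of all transcripts. A set chosen in the same way for a highest mean at Juvenile 2d and a lowest at 4d had a median of −0.63. Of its 146 transcripts tested 0 were called. DESeq2 called 5 members (3.33%) and 0.310% of all transcripts lower, and limma on TPM called 0. With Juvenile 6d replicate 1 and 7d replicate 3 left out, edgeR called 16 members (10.7%) lower and 0 higher, where 3.08% of all transcripts were lower and 2.11% higher. It called 7 (4.70%, all transcripts 2.35%) lower with only Juvenile 6d replicate 3 left out and 2 (1.34%, all transcripts 0.275%) lower with only 7d replicate 3 left out. Among the first 12 members the values included −3.25 for g6521.t1 (SE 0.99, edgeR adjusted p = 0.390), −2.45 for g12803.t1 (SE 0.60, edgeR adjusted p = 0.332) and −1.76 for g11646.t1 (SE 0.38, edgeR adjusted p = 0.332).

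Over these 3 comparisons 79 of the 150 members had at least 1 call, and 71, with the untested g12668.t1 among them, had none. Of those tested 53.0% had a call, where 57.6% of all transcripts did. Of the 51 members lower at Juvenile 3d, 3 were higher and 5 lower on the late days, where 22 and 14 of all 149 members were. The same overlap was not counted over all transcripts, so nothing is read from it.

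For the 2 days that chose the members, edgeR gave 149 of 149 higher at Juvenile 5d than at 4d and 0 lower, beside 13% higher and 11.9% lower among all transcripts tested, and nothing is read from this count. The fitted log2 fold changes ranged between 1.59 and 7.21, with a median of 2.63. In the steps on either side, whose direction the rule fixes, 45 members were lower at Juvenile 4d than at 3d, beside 5.37% lower and 7.17% higher among all transcripts, and 46 were lower at 6d than at 5d, beside 3.73% lower and 4.91% higher. Nothing is read from these counts either. On the TPM scale the median difference of all transcripts between Juvenile 5d and 4d was itself −0.20 by limma.

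The order of the 2 days was also read in libraries left out when the transcripts were ranked. The pair of days itself was set with all 18 libraries known, so these counts only describe how alike the replicates were. The rule was applied to 2 of the 3 replicates, and the 150 transcripts it then chose, of which 100, 125 and 114 were among the members with replicate 1, 2 and 3 left out, were read in the replicate left out. Read in replicate 1, 150 of 150 were higher at Juvenile 5d than at 4d. Read in replicate 2 it was 149 of 150, and read in replicate 3 it was 147 of 150. Among all eligible transcripts the shares were 35.8%, 38.2% and 35.8%. The full pattern, highest of the 6 days at 5d and lowest at 4d within the replicate left out, was met by 99 of 150 in replicate 1, 107 in replicate 2 and 40 in replicate 3, where 3.85%, 3.85% and 1.40% of eligible transcripts met it. Replicate 3 holds the Juvenile 5d library in which most members were lowest for that day and the 4d library in which most were highest.

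The membership itself depended somewhat on the rule. With a pseudocount of 0.1 or 5 TPM in the ranking 148 or 142 of the 150 stayed, and without the limits on mean TPM 124 stayed. With TMM-scaled CPM in place of TPM 124 stayed. Leaving out 1 library kept between 119 (Juvenile 4d replicate 3 left out) and 148 (6d replicate 3 left out).

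The files give few other features of the members. The median coding length was 991.5 bases (quartiles 644 and 1505) among the members and 1146 bases (720 and 1679) among eligible transcripts, and 20% against 17.4% were of 600 bases or less. A short sequence can have a sizeable TPM on few reads. g12862.t1 (351 bases), picked here after its values were seen, averaged 36.3 TPM at Juvenile 5d on 11, 13 and 9 counts. Reads had been divided between similar transcripts in at least 1 library for 7 members (4.67%), against 3.69% of eligible transcripts, and the other 143 had counts within 0.001 of a whole number throughout. For those 7, part of the level may belong to a similar transcript. Consecutive gene numbers occurred in 8 members, the pairs g4387 and g4388, g12861 and g12862, g13171 and g13172, and g13763 and g13764, and no run of 3 was present. In the pair g13763.t1 and g13764.t1 the levels at Juvenile 5d were 484 ± 156 and 86.7 ± 32.5 TPM, against 88.0 ± 29.3 and 7.07 ± 4.58 TPM at 4d (SD, n = 3 each).

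The same day pattern reached beyond the 150. With a mean above 1 TPM and no other limit, 311 transcripts had it, among them 10 with a mean of 1000 TPM or more, 58 between 1 and 5 TPM and 11 from genes with several predicted transcripts. The strongest by level was g8852.t1, named after its values were seen, with 54317 TPM at Juvenile 5d against 1781 TPM at 4d and 28042 TPM at 2d, as day means. Because TPM shares a fixed total, the level of such a transcript enters the TPM of all others.

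Of the 113 transcripts in the study's named lists, taken at any level, 4 had the pattern. Among all transcripts with a mean above 1 TPM, 311 of 10573 had it. Nothing is read from the count of 4, and the transcripts are only described. Superoxide dismutase, which removes superoxide radicals, is represented by g11595.t1, with 549 ± 175 TPM at Juvenile 5d against 36.9 ± 18.3 TPM at 4d (SD, n = 3 each). The CAHS transcript g4307.t1, from the family of cytosolic heat-soluble proteins that protect drying tardigrades, had 1557 ± 222 TPM at 5d against 158 ± 96.9 TPM at 4d. The SAHS transcript g1675.t1, from the secreted family of such proteins, had 3233 ± 304 TPM at 5d against 1069 ± 236 TPM at 4d. The glutathione S-transferase g7671.t1, of an enzyme family that couples glutathione to toxic compounds, had the smallest difference, with 57.6 ± 2.0 TPM at 5d against 32.01 ± 2.45 TPM at 4d. Their mean levels on the other days lay between these values, up to 2998 ± 978 TPM at Juvenile 6d for g1675.t1, and this overlaps with its level at 5d. For g7671.t1 the means of 32.9 ± 3.0 TPM at 3d, 32.6 ± 2.1 at 6d and 32.5 ± 8.8 at 7d were close to that at 4d. Its lowest day is therefore not clear. The CAHS transcript g4307.t1 was uneven at 7d, with 669 ± 702 TPM.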

How the data were processed

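RNA-Seq was measured in 18 libraries of R. varieornatus juveniles, 3 for each of Juvenile 2d to 7d, amplified with the SMARTer Ultra Low Input kit and sequenced from 1 end. The authors ran kallisto on predicted coding sequences and deposited the estimated counts per transcript without normalization. The authors also deposited TPM values, computed from these counts and effective lengths with sequence bias correction, per library and as a matrix (largest difference 0). The submitters' processing notes name kallisto 0.42.4 and 0.44.0 and bcl2fastq 2. Days and replicates were taken from the labels. The files' table of lengths (99.6% multiples of 3) gives coding lengths.

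Members were chosen from the TPM matrix by the rule given above. The members and lists were chosen with earlier results of these data known. The estimated counts, rounded to whole numbers, went into 1 fit of all 18 libraries by day in edgeR 4.0.16 (R 4.3.3), after filterByExpr and TMM normalization, and contrasts were tested by quasi-likelihood F tests. A standard error is the size of the log2 fold change over the root of F. The common dispersion was 0.112. P-values were adjusted by Benjamini-Hochberg over 10436 transcripts, and up to 0.05 was called. Values were computed with Python 3.11.15, pandas 2.3.3, scipy 1.17.1 and numpy 2.4.6, and plots with matplotlib 3.10.9.

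Transcripts named were those of ranks 1 to 12, the 5 of highest mean, 2 on each side of the last rank, the 3 called members of largest change in each direction, members in runs of 3 or more gene numbers, the molting list and listed transcripts with the day pattern. Alternatives were RLE normalization, no filter on low counts, DESeq2 1.42.0, limma 3.58.1 on log2(TPM + 1), a replicate block, a fit on the compared days only, each library left out, other pseudocounts in the ranking, no limits on mean TPM and TMM-scaled CPM.

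Totals were 1250604 to 5095736 counts per library. A count of 0 allows up to 3 counts, 0.589 to 2.40 CPM by library, for counting error alone, because amplified reads are not independent molecules. On simulated counts for 10436 transcripts with 200 changed by 2 on the log2 scale, the share recovered was 85% for Juvenile 5d against 4d (178 edgeR calls, 4.49% false) and 96.5% for late against early days (201 calls, 3.98% false). The simulation gave every transcript the common dispersion and let libraries of a day differ only in depth. These shares therefore check the code and do not describe the error of the tests on the real counts.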

Additional observations from a re-analysis of the deposited data

How the results depend on the processing

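Members lower at Juvenile 3d numbered 51 as reported, 28 with limma on log2(TPM + 1), 97 with only the 2 days in the fit (which also gave 5 higher, against 0) and 82 without Juvenile 6d replicate 1 and 7d replicate 3 (2 higher), an alternative chosen after seeing the data. In the same order these were 34.2%, 18.7%, 67.4% and 55.0% of the members tested. Of all transcripts 11.8%, 5.32%, 23.6% and 21.6% were lower in these fits. In the fit of the 2 days 3.47% of the members were higher, against 25.2% of all transcripts. With 1 library left out there were 25 to 66 lower (5.80% and 13.7% of all transcripts in those 2 fits) and 0 to 1 higher. On the late days 22 were higher and 14 lower, limma on TPM gave 36 and 8, the fit without both libraries gave 21 and 34, and leaving out 1 library gave 12 to 25 and 8 to 27. All transcripts had 27.2% higher and 18.8% lower as reported, 33.05% and 12.8% with limma, and 31.1% and 24.7% without both libraries. With 1 library left out, 23.3% to 31.1% of all transcripts were higher and 15.6% to 23.6% lower. At Juvenile 7d against 6d, with 0 called, DESeq2 gave 5 lower, the fit without both libraries 16, and leaving out 1 library 0 to 7. At 5d against 4d leaving out 1 library gave 141 to 149 higher. Leaving out 1 library kept 119 to 148 of the 150 members. Shares of all transcripts moved as well between these fits. The cause of these shifts was not tested. The members named for their change at 3d or on the late days kept their direction in every alternative run.

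Of 45 pairs of same-numbered libraries from different days 5 had a correlation of deviations above 0.1 (range −0.30 to 0.19). Pairs of different numbers were not compared, so whether same-numbered replicates are paired was not tested. With the replicate block 50 members were lower at Juvenile 3d, and 16 were higher and 13 lower on the late days. RLE normalization gave 51, 21 and 15 and no filter on low counts 49, 20 and 14. All transcripts had 10.1%, 25.6% and 18.2% with the replicate block, 11.5%, 25.9% and 19.9% with RLE, and 7.93%, 20.8% and 14.3% without the filter. Depth limits the members with few reads at Juvenile 4d, 27 of which had under 10 counts in a library.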
